A study of Homo sapiens with 11 samples.

Results

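The partners and antagonists of MYC proteins that bind through MAX or through its relative MLX were followed in IMR32, a human neuroblastoma cell line with amplified MYCN. The genes chosen were MAX, MXI1, MXD1, MXD3, MXD4, MNT, MLX, MLXIP, MYCL and MYC, 10 in all, and every probe set annotated to one of them was taken. This gave 28 of the 54675 probe sets on the array. Of these, 25 named a single gene and covered 9 of the 10 genes. The other 3 were annotated to MXD4 and to the microRNA gene MIR4800 together, and MXD4 had no probe set of its own.

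Cells were grown in DMEM with fetal calf serum and transduced with lentivirus. In 6 arrays, labelled shMYCN A and B at 24, 48 and 72 hours, the virus carried 1 short hairpin RNA against MYCN. In 3 arrays, 1 at each of these hours, it carried a control hairpin, and 2 further arrays held cells collected without virus at 0 hours. The model is thus 1 cell line, 1 hairpin against MYCN and a single control array per hour. Whether A and B are separate cultures is not stated in the labels, so the p-values reflect only how far arrays of a group differ, and part of that may be technical.

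MAX is the obligate partner of MYC, MYCN and MYCL, and these dimers bind the E-box sequence CACGTG and activate transcription. The MXD proteins, among which MXI1 is counted, and MNT compete for MAX and recruit SIN3 corepressors to the same sites. MLX heads a parallel branch: with MLXIP, also called MondoA, it responds to glucose-derived metabolites, and it can also pair with MXD1, MXD4 and MNT.

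The E-box is the sequence that all these dimers share, so the promoters of the members were searched for it. RefSeq promoters on GRCh38.p14, running from 250 bases before to 50 bases after a start site, were given for 9 of the genes, 12 promoters in all. MYC was not used here. CACGTG, which reads the same on both strands, was found in 3 of the 12 (25.0%), in MLX, MNT and MXD4, against 2548 of all 35116 promoters in the table (7.26%). A match is a match of letters only. The MLX promoter lies at chr17:42566850-42567149 on the plus strand, with its E-box, in capitals here and below, at positions -50 to -45 from the start. For MNT a stretch at chr17:2401228-2401273 and for MXD4 a stretch at chr4:2262322-2262359 is shown, both on the minus strand. Their E-boxes lie at -193 to -188 in MNT and at -238 to -233 in MXD4.
MLX: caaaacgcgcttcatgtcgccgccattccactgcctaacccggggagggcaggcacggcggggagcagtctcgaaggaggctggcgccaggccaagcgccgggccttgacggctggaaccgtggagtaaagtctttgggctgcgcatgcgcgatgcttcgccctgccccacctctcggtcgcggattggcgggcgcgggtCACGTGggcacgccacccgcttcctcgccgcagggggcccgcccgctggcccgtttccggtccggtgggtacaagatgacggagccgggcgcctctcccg
MNT: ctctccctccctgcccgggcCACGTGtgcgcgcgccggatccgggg
MXD4: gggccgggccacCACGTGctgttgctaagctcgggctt

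None of the 3 MXI1 promoters held CACGTG, and they are shown because MXI1 had the largest difference in the average over the 3 hours among the 8 members tested as genes. They lie on the plus strand at chr10:110207355-110207654 (upstream), chr10:110209981-110210280 (middle) and chr10:110225746-110226045 (downstream). The absence of these letters from the windows says nothing about which factors bind MXI1. The single MXI1 probe set does not tell the starts apart.
MXI1 upstream: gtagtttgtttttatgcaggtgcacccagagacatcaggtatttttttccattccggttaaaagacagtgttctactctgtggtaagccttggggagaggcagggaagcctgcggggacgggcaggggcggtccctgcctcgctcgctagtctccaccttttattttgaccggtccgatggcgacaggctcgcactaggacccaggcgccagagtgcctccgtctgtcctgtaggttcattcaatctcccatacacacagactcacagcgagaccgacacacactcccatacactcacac
MXI1 middle: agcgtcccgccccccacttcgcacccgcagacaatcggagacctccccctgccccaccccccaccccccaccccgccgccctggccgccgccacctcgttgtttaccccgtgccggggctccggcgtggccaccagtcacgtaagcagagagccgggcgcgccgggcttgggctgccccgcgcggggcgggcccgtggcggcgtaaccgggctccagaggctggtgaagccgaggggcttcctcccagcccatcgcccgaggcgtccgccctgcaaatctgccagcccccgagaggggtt
MXI1 downstream: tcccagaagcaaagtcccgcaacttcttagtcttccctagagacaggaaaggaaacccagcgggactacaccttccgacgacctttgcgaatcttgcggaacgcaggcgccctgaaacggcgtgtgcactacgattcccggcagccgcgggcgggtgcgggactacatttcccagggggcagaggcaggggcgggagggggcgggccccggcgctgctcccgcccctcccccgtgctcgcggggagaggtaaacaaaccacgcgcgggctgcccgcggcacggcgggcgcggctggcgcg

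Array quality and the labels were checked first. The median signal of an array ranged from 14.9 to 16.7, and arrays of one group correlated at r = 0.989 to 0.993. The shMYCN pair at 48 hours was the least alike, and on its array A the bacterial poly-A spike controls stood at 2.28 times the mean of the control virus and no virus arrays. MYCN mRNA, the target of the hairpin, passed as lower than control virus on none of its 10 probe sets. Its brightest probe set read 5488.1 and 4567.4 at 24 hours, 5241.4 and 5316.9 at 48 hours and 5623.7 and 4946.5 at 72 hours. Control virus arrays read 5332.1, 5389.7 and 5055.3 at these hours, and no virus arrays 5040.1 and 4507.4. Over the 3 hours the log2 difference of this brightest MYCN set was -0.020 ± 0.09 (limma adjusted p = 0.924). Set 209756_s_at read 254.2 and 292.3 in shMYCN at 24 hours and 650.7 and 795.6 at 72 hours. Control virus read 406.4 and 370.4 at these hours, and no virus 370.8 and 354.8. This set differed from control virus by -0.55 ± 0.31 and 0.93 ± 0.31, and 211377_x_at by -0.52 ± 0.31 and 0.68 ± 0.31. None of these differences passed, so the direction of every comparison rests on the labels. Probe sets 209756_s_at and 211377_x_at of MYCN were higher at 72 than at 24 hours within shMYCN, by 1.35 ± 0.25 and 1.26 ± 0.25 (adjusted p = 0.0106 and 0.0133, with 13.7% of all probe sets called). Set against the change in control virus over the same hours, the excess was 1.48 ± 0.44 and 1.20 ± 0.43, and both missed the threshold. The sympathetic markers PHOX2A (966.5 to 1389.6), GATA3 (2873.3 to 3498.5) and CHGA (1102.1 to 1733.0) were bright on every array. HAND2 (67.7 to 122.7) and GATA2 (47.4 to 76.6) were lower, and TH lay between 0.6 and 25.4. These markers were not all steady. CHGA read 1397.7 to 1733.0 in shMYCN and 1102.1 to 1365.6 in control virus and no virus, without overlap. At 72 hours DBH read 88.5 and 85.9 in shMYCN against 205.0 in control virus, and ISL1 669.0 and 582.0 against 749.7. CHGB went the other way, with 341.5 and 320.8 against 181.2. The summed signal of the glial markers with a probe set was 3.2 to 14.4 in shMYCN, 5.7 to 8.7 in control virus and 5.7 to 9.6 in no virus arrays, and SOX10, S100B and GFAP were each near 0. That of the leukocyte markers was 12.3 to 31.5, 29.2 to 34.6 and 11.1 to 37.6 in these groups. The fibroblast and endothelial sum was 478.0 to 720.9 in shMYCN, 342.4 to 413.2 in control virus and 366.1 to 374.1 in no virus. Most of it was COL1A1, which read 407.4 and 418.3, then 651.3 and 432.2, then 658.6 and 648.7 in shMYCN at the 3 hours. COL1A1 read 292.2, 327.9 and 354.1 in control virus and 317.0 and 308.5 in no virus, so the groups did not overlap. PDGFRB (13.1 to 34.1), DCN (10.6 to 15.7), PECAM1 (16.6 to 25.0) and VWF (0.5 to 10.0) were dim.

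Signals were analysed as log2(signal + 16), and differences are given on that scale, as shMYCN minus control, with the standard error of the fit. For tests across genes, each gene was represented by its brightest probe set and 11865 genes passed a filter on low signal. MAX, MXI1, MXD1, MXD3, MNT, MLX, MLXIP and MYCL passed it, MYC lay below it, and MXD4 was outside it for want of a probe set of its own. A gene was called at an adjusted p under 0.05. All 25 probe sets were also tested without a filter. Below, arrays of a group are in places said to lie above or below the controls. The share of all probe sets that separate in this way was not counted.

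Of the 8 members tested, 0 were called at 24 hours (1 at an unadjusted p under 0.05), where 0.708% of all genes were called. At 48 hours 1 was called, against 17.0% of all genes, and at 72 hours 2, against 34.0%. Averaged over the 3 hours, 2 of 8 were called, MXI1 higher and MLX lower, against 37.9% of all genes. The median of the 8 differences in that average was 0.038, and that of all genes was 0.037. Read against these backgrounds, the counts show nothing particular to the network, and its median lay beside that of all genes. The members differed among themselves and are described by their roles.

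**Figure D1:**
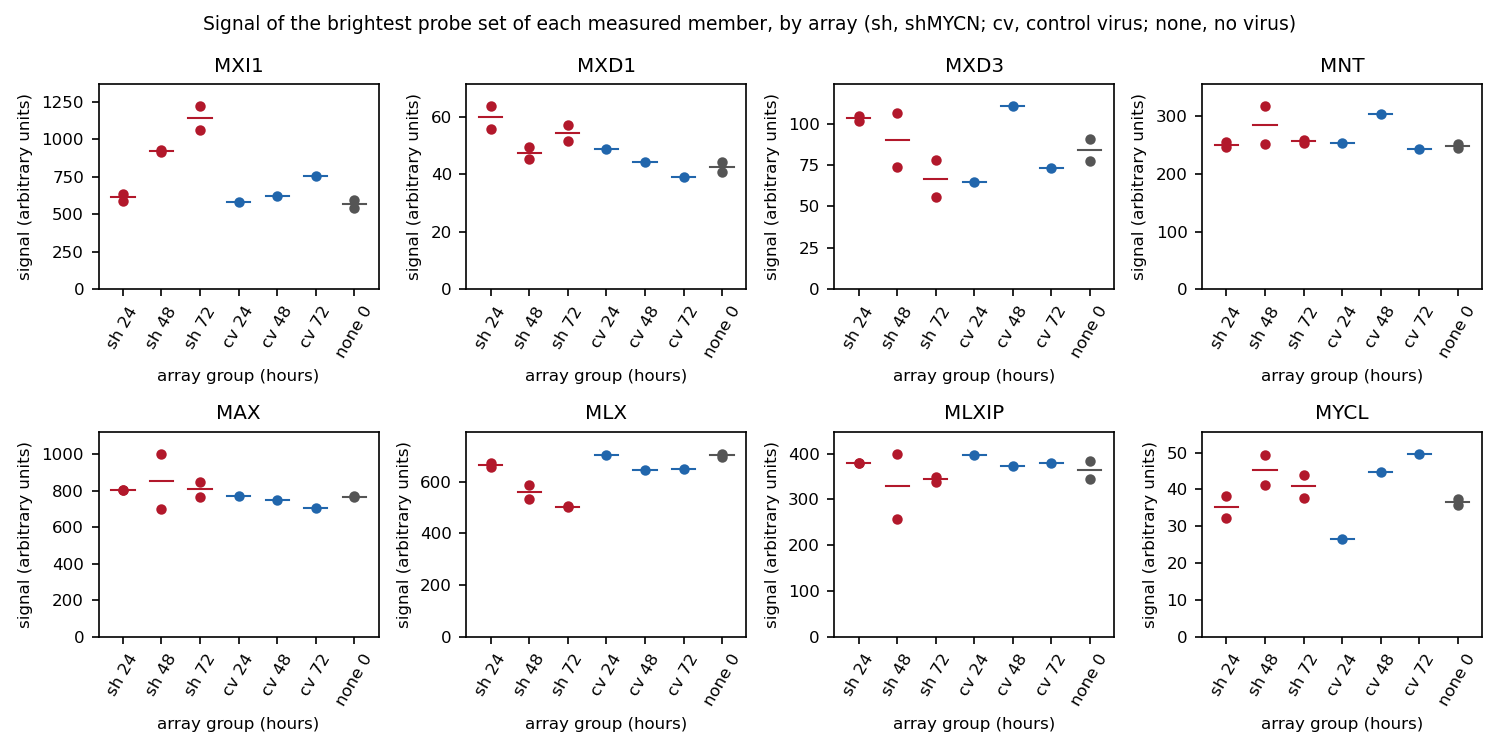
Signal (linear scale, arbitrary units) of the brightest probe set of each member on the 11 arrays, shMYCN left of control virus at each hour and cells without virus last. MXI1 climbs to 1059.6 and 1219.5 in the shMYCN arrays at 72 hours, while MLX lies at 507.1 and 500.1 there, below every control.

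MXI1, an antagonist that takes MAX away from MYC proteins, rose with time under the MYCN hairpin. Its signal was 590.9 and 637.8 in the shMYCN arrays at 24 hours, 916.7 and 926.8 at 48 hours, and 1219.5 and 1059.6 at 72 hours. The control virus arrays gave 582.3, 619.4 and 756.3 at these hours, and the no virus arrays read 597.2 and 545.4. Both shMYCN arrays lay above all 5 controls at 48 and at 72 hours, whereas at 24 hours they overlapped them. The order of the groups ran from shMYCN at 72 hours through shMYCN at 48 hours to control virus at 72 hours, with the other 4 groups close together. COL1A1 and the sympathetic marker CHGA, as given above, were likewise higher in all shMYCN arrays than in all 5 controls. The part of the cell type markers in the results for MXI1 and the other members was not tested.

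At 24 hours MXI1 differed from control virus by 0.07 ± 0.11 (limma adjusted p = 0.868). At 48 hours it was 0.56 ± 0.11 higher (limma adjusted p = 0.0062), a 1.48-fold difference. At 72 hours it was 0.58 ± 0.11 higher (limma adjusted p = 0.00218), or 1.49-fold. The difference was near 0 at 24 hours and of like size at 48 and 72 hours. Averaged over the 3 hours it was 0.40 ± 0.06 (limma adjusted p = 5.27e-04). Within the shMYCN arrays, 72 hours stood 0.87 ± 0.09 above 24 hours (limma adjusted p = 3.66e-05). Set against the change in control virus over the same hours, the excess was 0.50 ± 0.16, which missed the threshold (limma adjusted p = 0.0668). It passed under quantile normalization and where shMYCN arrays of 48 hours were left out (lowest adjusted p = 0.024). Against cells without virus, MXI1 averaged 0.58 ± 0.07 higher in shMYCN (limma adjusted p = 1.54e-04). Control virus against no virus gave 0.18 ± 0.08 (limma adjusted p = 0.945). In the fit of all probe sets, where 4.33% were called at 48 hours, MXI1 was called at that hour as well (adjusted p = 0.0296), a call lost in 6 of 16 alternatives. These were the fit without trend and the omission of either shMYCN array of 24 hours, shMYCN 48 hours A or either no virus array (adjusted p up to 0.0735). That fit also called MXI1 at 72 hours, except without shMYCN 72 hours A (adjusted p = 0.0537), and over the 3 hours. The average of 24 and 48 hours alone, which remains without control virus at 72 hours, was not called in it (adjusted p = 0.0616).

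MXD1, a repressor best known from differentiating cells, gave mixed readings between its probe sets. The brightest read 56.0 and 63.7 in shMYCN at 24 hours, 45.4 and 49.6 at 48 hours, and 51.5 and 57.4 at 72 hours. In control virus arrays the signal was 48.8, 44.3 and 39.2, and no virus arrays read 40.7 and 44.4. All 6 shMYCN values lay above the control virus value of their hour, by 0.22 ± 0.09 over the 3 hours (limma adjusted p = 0.0876). At 72 hours the difference was 0.35 ± 0.16 (limma adjusted p = 0.117), and it passed when all probe sets of MXD1 were averaged (adjusted p = 0.0313). The second MXD1 probe set read 30.4 and 26.4, then 27.5 and 20.8, then 37.9 and 40.2 in shMYCN at the 3 hours. It read 25.5, 15.4 and 16.8 in control virus and 18.6 and 22.9 in cells without virus. At 72 hours it was 0.75 ± 0.20 higher (limma adjusted p = 0.0440 over all probe sets). The call was lost in 9 of 16 alternatives, among them each omission of a shMYCN array of 24 or 72 hours or a no virus array (adjusted p up to 0.147). The third probe set was dim, between 0.8 and 4.5.

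MXD3, a member of the family linked to the S phase of dividing cells, differed between hours within the shMYCN arrays and passed no comparison with the controls. It read 101.8 and 104.6 in shMYCN at 24 hours, 73.7 and 106.5 at 48 hours, and 55.9 and 77.7 at 72 hours. Control virus gave 65.0, 110.3 and 73.2, and no virus arrays read 77.3 and 90.8. The control virus values lay within the range of the shMYCN values but for that of 48 hours, the highest of all. Between 24 and 72 hours under the hairpin MXD3 differed by -0.54 ± 0.17 (limma adjusted p = 0.0285). That comparison called 3 of 8 members, MXI1, MLX and MXD3, and 36.4% of all genes. The MXD3 call was lost without the filter on low signal (adjusted p = 0.0808), without shMYCN 24 hours A (0.104) or B (0.119), and without shMYCN 72 hours A (0.234). Against control virus its differences were 0.56 ± 0.21, -0.27 ± 0.21 and -0.12 ± 0.21 at the 3 hours (limma adjusted p = 0.320, 0.420 and 0.698).

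The annotation gives 3 probe sets to both MXD4, a further MAX-binding repressor, and MIR4800, which RefSeq places within MXD4. Which transcript their probes match was not tested. Probe set 210778_s_at read 80.1 and 100.8 in shMYCN at 24 hours, 117.0 and 122.8 at 48 hours and 194.1 and 191.8 at 72 hours. The control virus signals were 93.6, 116.0 and 83.1, and no virus arrays read 73.7 and 93.1. Its 72 hour shMYCN arrays stood far above all 5 controls, and those of 24 and 48 hours were among them or just above. The second set, 212346_s_at, read 64.7 and 47.8, then 62.6 and 89.7, then 101.1 and 113.0 in shMYCN, against 46.5, 57.2 and 54.9 in control virus and 60.3 and 52.2 in no virus. The third, 212347_x_at, read 111.1 and 96.0, then 113.1 and 119.2, then 135.5 and 155.9 in shMYCN. It read 119.2, 117.9 and 91.0 in control virus, and 114.9 and 113.0 in no virus. On all 3 sets both shMYCN arrays of 72 hours exceeded every other array. The 3 sets share their annotation and are not separate evidence.

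At 72 hours 210778_s_at was 1.08 ± 0.16 higher than control virus (limma adjusted p = 0.00392) and 212347_x_at was 0.59 ± 0.13 higher (adjusted p = 0.0205). The value of 212346_s_at was 0.79 ± 0.22 (adjusted p = 0.0519). These came from a fit that added the probe sets with several symbols, in which 12.4% of 42892 were called. The call of 212347_x_at was lost without shMYCN 72 hours B (adjusted p = 0.101), and that of 210778_s_at held in all 16 alternatives. At 24 and 48 hours the 3 sets lay between -0.18 and 0.32 with no call. Within shMYCN, all 3 were higher at 72 than at 24 hours, by 0.98 ± 0.13, 0.78 ± 0.18 and 0.44 ± 0.10 (limma adjusted p = 0.00234, 0.0244 and 0.0294), where 13.6% of probe sets were called. The call of the second was lost without any 1 of the 4 arrays compared (adjusted p up to 0.152). That of the third was lost without any of these or either no virus array and under median scaling (adjusted p up to 0.178). Averaged over the 3 hours 210778_s_at was 0.36 ± 0.09 higher (limma adjusted p = 0.0363, with 14.6% of that fit called), and the average of 24 and 48 hours alone, which is what remains without the control virus array of 72 hours, was -0.0036 (adjusted p = 0.994).

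MNT, the widely expressed repressor of the group, passed no comparison. It read 246.0 and 254.1 at 24 hours, 252.0 and 316.4 at 48 hours, and 258.0 and 253.7 at 72 hours in shMYCN. Control virus arrays read 253.1, 302.8 and 243.4, and no virus arrays 244.6 and 251.7. Over the 3 hours the difference was -0.015 ± 0.075 (95% interval -0.18 to 0.15, limma adjusted p = 0.893). The highest shMYCN reading and the highest control reading both came at 48 hours. A second MNT probe set was dim, between 1.6 and 12.9.

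MAX itself, the hub of the network, showed no difference past the threshold, and its probe sets did not move alike. The brightest, 209332_s_at, read 804.8 and 802.5 in shMYCN at 24 hours, 700.3 and 1003.4 at 48 hours, and 850.8 and 767.3 at 72 hours. Control virus arrays measured 770.8, 747.0 and 706.9, and no virus arrays read 767.7 and 768.9. The lowest and the highest of the 11 values were the shMYCN arrays A and B of 48 hours. Over the 3 hours the difference was 0.14 ± 0.09 (95% interval -0.069 to 0.34, limma adjusted p = 0.276). Without shMYCN 48 hours A it was 0.22 and called (adjusted p = 0.00332), and its value at 48 hours was then 0.42 (adjusted p = 0.00932). The poly-A spikes on that array stand apart as given above, and their part in the MAX value was not tested.

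Of the other MAX probe sets, 3 gave differences below 0 over the 3 hours. Set 209331_s_at read 168.3 and 158.3, then 143.1 and 170.1, then 180.3 and 258.0 in shMYCN at the 3 hours, against 196.3, 204.6 and 186.0 in control virus and 163.8 and 167.2 in no virus. Set 210734_x_at read 79.4 and 55.0, then 77.6 and 130.8, then 105.4 and 126.6 in shMYCN, against 112.4, 142.5 and 101.6 in control virus and 85.4 and 94.2 in no virus. On both, all 4 shMYCN arrays of 24 and 48 hours lay below the control virus array of their hour. Their differences over the 3 hours were -0.13 ± 0.11 and -0.31 ± 0.16 (limma adjusted p = 0.491 and 0.262), opposite in sign to the brightest set. Set 208403_x_at gave -0.21 ± 0.11 (limma adjusted p = 0.286), while 214108_at, dim at 0.9 to 15.0, gave 0.28 ± 0.11 (adjusted p = 0.141).

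MLX, the partner of MondoA, fell at 72 hours, and on 1 of its probe sets at 48 hours as well. Its brightest probe set, 217909_s_at, read 672.1 and 655.8 in shMYCN at 24 hours, 531.2 and 586.1 at 48 hours, and 507.1 and 500.1 at 72 hours. With control virus it was 704.0, 644.4 and 648.2, and no virus arrays read 708.3 and 696.8. Both shMYCN arrays of 48 and of 72 hours lay below all 5 controls, and those of 24 hours lay within the range of the controls. From high to low the groups ran from no virus and control virus at 24 hours, which were close, through shMYCN at 24 hours and control virus at 72 and 48 hours, also close, to shMYCN at 48 and at 72 hours.

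The 24 hour MLX difference, -0.08 ± 0.10, and that of 48 hours, -0.20 ± 0.10, missed the threshold (limma adjusted p = 0.825 and 0.184). At 72 hours it was -0.35 ± 0.10 (limma adjusted p = 0.0159), or 0.782 of the control level. Without shMYCN 72 hours A or B the 72 hour call was lost (adjusted p = 0.0509 and 0.0612), with the value still at -0.36 and -0.34. The average over the 3 hours was -0.21 ± 0.06 (limma adjusted p = 0.0114). Without the control virus array of 72 hours, only 24 and 48 hours can be averaged, and this average was -0.14 (adjusted p = 0.190). Within shMYCN, MLX at 72 against 24 hours differed by -0.39 ± 0.08 (limma adjusted p = 0.00293), and this held in all 21 alternatives. The excess over the change in control virus was -0.27 ± 0.14 (limma adjusted p = 0.243). Against no virus MLX averaged -0.29 ± 0.07 (limma adjusted p = 0.00568), where 2 of 8 members and 30.8% of all genes were called. That call was lost without either no virus array (adjusted p = 0.088 and 0.0676) and when all probe sets of a gene were averaged (adjusted p = 0.101).

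The other 2 bright MLX probe sets were lower as well. Set 217910_x_at read 417.9 and 414.6, then 351.4 and 366.8, then 351.4 and 348.2 in shMYCN, against 461.1, 491.7 and 503.8 in control virus and 465.1 and 470.1 in no virus. All 6 shMYCN values lay below all 5 controls. Set 213708_s_at read 598.8 and 562.5, then 499.7 and 502.0, then 497.3 and 446.3 in shMYCN, against 590.1, 607.6 and 605.3 in control virus and 609.4 and 592.7 in no virus. At 48 hours 217910_x_at was -0.44 ± 0.08 (limma adjusted p = 0.0215, with 4.33% of all probe sets called), a call lost in 8 of 16 alternatives. These were median scaling, the fit without trend, and the omission of any shMYCN array of 24 or 72 hours or either no virus array (adjusted p up to 0.0700). At 72 hours 217910_x_at was -0.51 ± 0.08 (limma adjusted p = 0.00436) and 213708_s_at was -0.35 ± 0.09 (adjusted p = 0.0427). The 72 hour call of 217910_x_at held in all 16 alternatives, and its average over the 3 hours, -0.36 ± 0.04 (adjusted p = 0.00138, with 14.7% of all probe sets called), in all 17. That of 213708_s_at was lost in 7 of 16, among them each omission of a shMYCN array of 24 or 72 hours or a no virus array (adjusted p up to 0.161).

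Of the dimmer MLX sets, 210752_s_at read 37.7 and 33.7 in shMYCN at 72 hours, against 63.3 in control virus, a difference of -0.62 ± 0.18 (limma adjusted p = 0.0594). Set 1570347_at read 25.7 and 39.9 against 54.0 there, -0.54 ± 0.22 (adjusted p = 0.172). The sixth, 231401_s_at, lay between 1.1 and 9.0. The letter x in a probe set name marks probes that can also match other sequences, and s marks sets shared by several transcripts, so isoforms of MLX cannot be told apart here.

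**Figure D2:**
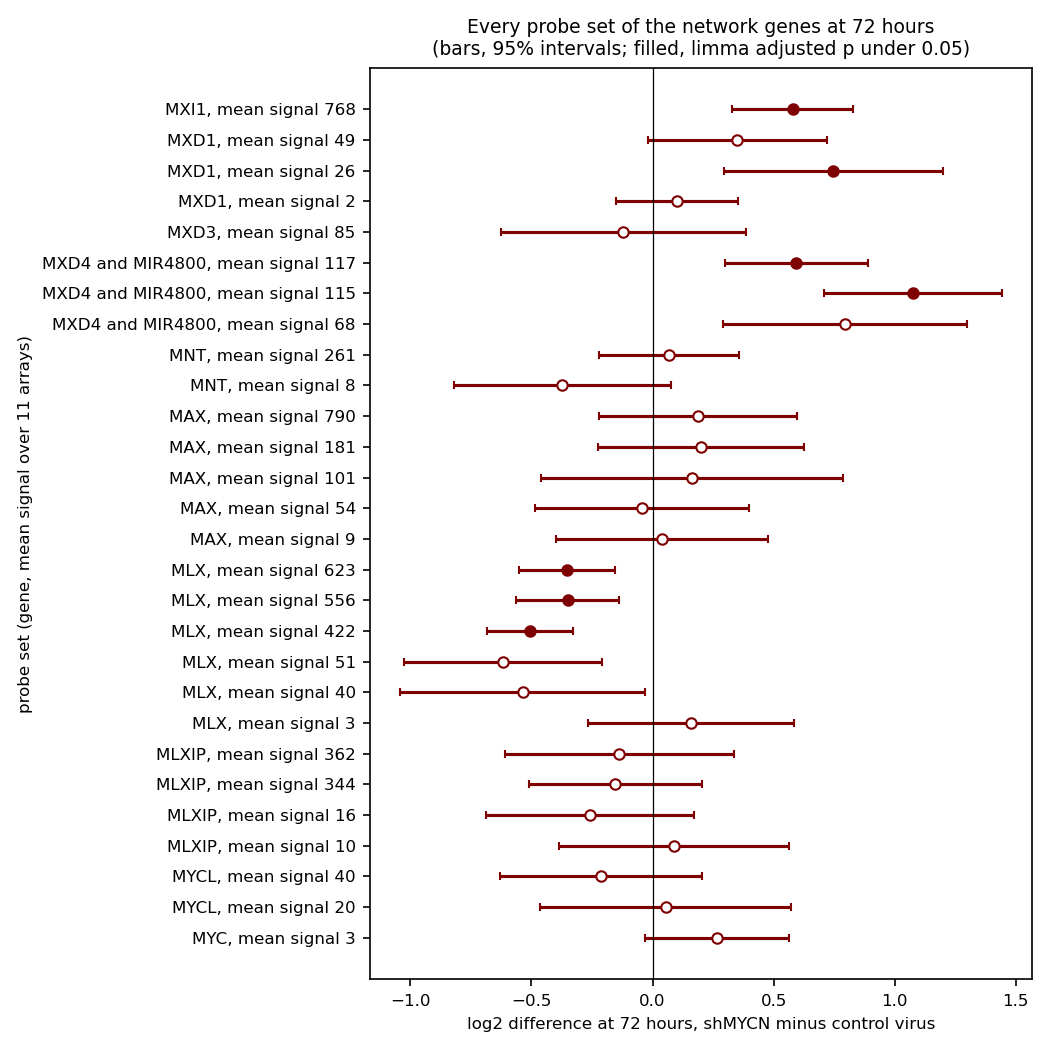
Log2 difference at 72 hours, shMYCN minus control virus, of every member probe set, with 95% intervals of the limma fit; filled points had an adjusted p under 0.05. The 5 brighter MLX sets all lie left of 0, and MXI1, the 3 MXD1 sets and the 3 sets shared by MXD4 and MIR4800 lie right of it.

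Over all 25 single-gene probe sets at 72 hours, 5 were called (MXI1, 1 of MXD1 and 3 of MLX), 2 higher and 3 lower, against 12.5% of all probe sets. The probe sets of 1 gene share its RNA and are not separate evidence. At 24 hours 0 of the 25 were called by limma (2 at an unadjusted p under 0.05), against 0.0487% of all probe sets.

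MLXIP, the glucose-responsive partner of MLX, did not pass. Its brightest probe set read 380.5 and 379.8 in shMYCN at 24 hours, 257.3 and 399.9 at 48 hours, and 348.5 and 338.8 at 72 hours. Control virus arrays read 396.4, 372.6 and 379.3, and no virus arrays 384.6 and 345.1. The low value, as for MAX, was on shMYCN 48 hours A. A second bright set read 353.4 and 386.0, then 274.8 and 359.7, then 311.7 and 361.1 in shMYCN, against 317.1, 355.9 and 374.9 in control virus and 335.3 and 351.1 in no virus, and was lowest on the same array. Over the 3 hours MLXIP differed by -0.13 ± 0.11 (95% interval -0.37 to 0.10, limma adjusted p = 0.357). With shMYCN 48 hours B left out, so that A stood alone for that hour, it was -0.23 and called (adjusted p = 0.0029).

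MYCL, a MYC relative that also needs MAX, was dim. It read 32.1 and 38.2 in shMYCN at 24 hours, 49.3 and 41.3 at 48 hours, and 37.6 and 44.0 at 72 hours, against 26.6, 44.6 and 49.7 in control virus and 37.5 and 35.8 in no virus. The shMYCN arrays lay above control virus at 24 hours and below it at 72 hours. The differences were 0.26 ± 0.17 and -0.21 ± 0.17 (limma adjusted p = 0.641 and 0.380), and their average over the 3 hours was 0.021 ± 0.10. A second MYCL set lay between 11.9 and 29.0.

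MYC, the paralogue of MYCN, was close to the lower end of the signal scale in these cells. It read 2.7 and 1.8 in shMYCN at 24 hours, 4.5 and 5.3 at 48 hours, and 6.0 and 2.1 at 72 hours. The 3 control virus arrays had 2.0, 0.6 and 0.6, and no virus arrays read 1.2 and 1.1. All 4 shMYCN values of 48 and 72 hours lay above all 5 controls, at signals far under the low-signal filter of 14.8. The fitted average over the 3 hours was 0.21 ± 0.07 (limma adjusted p = 0.112 over all probe sets), which passed only without shMYCN 72 hours B (adjusted p = 0.0413). Added to 16, such signals leave little room for a log2 difference.

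**Figure D3:**
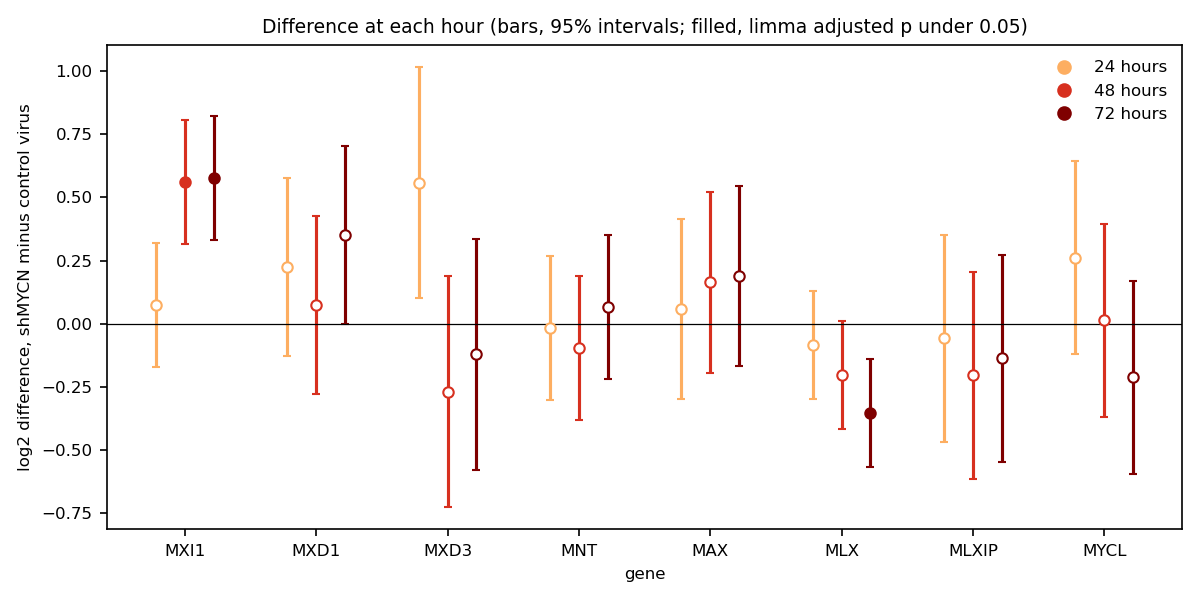
Log2 difference, shMYCN minus control virus, of the 8 members that passed the low-signal filter, at 24, 48 and 72 hours, with 95% intervals of the limma fit. MXI1 lies near 0 at 24 hours (0.07) and at 0.56 and 0.58 later, MLX steps down to -0.35, and the intervals of the other 6 members cross 0 at every hour, except that of MXD3 at 24 hours.

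The controls were set against each other. The no virus arrays are all of 0 hours, so in any comparison with them virus and time in culture cannot be told apart. Control virus against no virus called 0 of the 8 members with limma (0 at an unadjusted p under 0.05), and 0.0337% of all genes. The change of the shMYCN to control difference between 24 and 72 hours called 0 of 8 (2 unadjusted, MXI1 and MXD3), against 10.3% of all genes. In RNA from a whole culture, fewer cells that express a gene and less RNA per cell cannot be told apart.

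The 3 genes most like MXI1 over the 11 arrays were SLC6A15, an amino acid transporter (Pearson r = 0.993), LTA4H, an enzyme of leukotriene synthesis (r = 0.99), and LCLAT1, a lysolipid acyltransferase (r = 0.984). For MLX they were the receptor FGFR3 (r = 0.99), the spliceosome component PRPF8 (r = 0.985) and the neurotrophic factor receptor GFRA2 (r = 0.985). These r are across 11 arrays that share hour and virus, among 11865 genes searched, and are given as a description. SLC6A15 read 1035.1 and 949.2 in shMYCN at 72 hours, against 707.9 in control virus. FGFR3 read 12.5 and 14.8 there, against 39.4. Averaged over the hours SLC6A15 differed by 0.33 and FGFR3 by -0.62.

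Genes that work with the network were taken as lists and read in the average over the 3 hours, where 37.9% of all genes were called. Where a control virus array is left out below, its hour leaves the average and the other hours remain. Of the other network factors MYCN, MGA and MLXIPL, only MYCN was tested, and it was not called. Of other E-box binding zipper factors 7 of 9 were tested, with 0 higher, 1 lower and a median of 0.056. The lower one was TFAP4, known as a MYC target (-0.58 ± 0.18). Its call was lost in 6 of 20 alternatives, 5 of them the omission of 1 array: shMYCN 24 hours B, either shMYCN array of 72 hours or the control virus array of 48 or 72 hours (adjusted p up to 0.166).

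Of SIN3 and NCOR corepressor genes, through which MXD proteins and MNT repress, 17 of 20 were tested, 2 higher and 3 lower, with a median of 0.07. The deacetylase HDAC2 fell by 0.68, the histone chaperone RBBP7 by 0.46 and BRMS1 by 0.26 on the log2 scale, while HDAC1 (0.25) and ING1 (0.22) rose. The RBBP7 call was lost without the control virus array of 72 hours (adjusted p = 0.0983) and that of HDAC1 without the one of 48 hours (0.0643). The BRMS1 call was lost in 4 of 21 alternatives, all omissions of 1 array: shMYCN 24 hours B, shMYCN 72 hours A and control virus at 24 or 48 hours (adjusted p up to 0.160). That of ING1 was lost in 9, including these 4 and the control virus array of 72 hours (adjusted p up to 0.178). Of the polycomb complex that contains MGA and MAX, 15 of 17 genes were tested, 2 higher and 3 lower, with a median of 0.025. TFDP1, the E2F partner, was at -1.32, the ring finger subunit PCGF6 at -1.06 and RYBP at 0.35, and HDAC1 and HDAC2 were counted here again.

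The list of MYC coactivators also took in ZBTB17, which is described here only as binding MYC. Of its 18 genes 17 were tested, 2 higher and 3 lower, with a median of 0.059. The acetyltransferases CREBBP (0.41) and EP300 (0.28) were higher, and the MYC-binding zinc finger factor ZBTB17 (-0.46), CDK9 (-0.29) and TRRAP (-0.23) were lower. The ZBTB17 call held in all 21 alternatives, and that of CREBBP was lost when all probe sets of a gene were averaged (adjusted p = 0.216). The CDK9, TRRAP and EP300 calls were lost in 4, 8 and 11 alternatives, in each case also without the control virus array of 48 or of 72 hours (adjusted p up to 0.175, 0.345 and 0.470). Of genes for turnover of MYC proteins 18 of 19 were tested, 3 higher and 4 lower, with a median of -0.07. The ubiquitin ligase subunit FBXW7 (0.58), AURKA (0.31) and GSK3B (0.28) were higher, and PLK1 (-0.54), CIP2A (-0.43), SKP2 (-0.30) and BTRC (-0.25) were lower. Leaving out control virus at 72 hours, the calls of CIP2A (adjusted p = 0.0976), GSK3B (0.154), SKP2 (0.528) and BTRC were lost. That of BTRC was lost in 3 further alternatives (adjusted p up to 0.259).

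All 5 targets listed for MondoA and MLX were tested, 2 higher and 1 lower, with a median of 0.146. The arrestins TXNIP (0.70 ± 0.07) and ARRDC4 (0.52 ± 0.07) rose and the glycolytic regulator PFKFB3 fell (-0.87 ± 0.07), while MLX itself was lower and MLXIP did not pass. These 3 calls held in all alternatives tried. No list was tested as a set, and none of the medians lay further than 0.15 from 0.

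**Figure D4:**
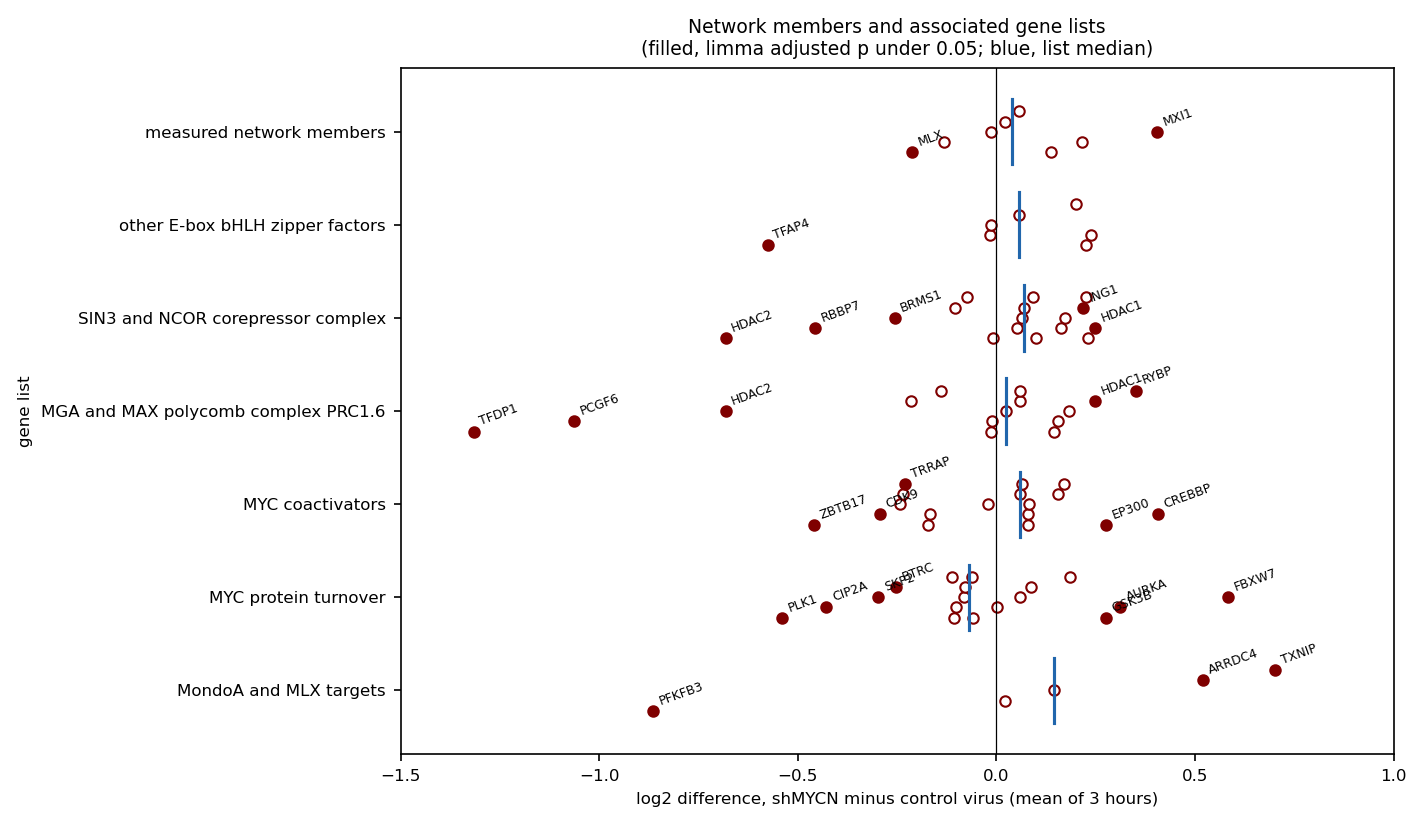
Log2 difference, shMYCN minus control virus, averaged over 3 hours, of each tested gene in the network and in 6 associated lists, with filled points for an adjusted p under 0.05 and a blue bar at the list median. Every list holds genes on both sides of 0, with TFDP1 (-1.32) and PCGF6 (-1.06) lowest and TXNIP (0.70) highest.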

How the data were processed

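The values are signal intensities on a linear scale, which the authors deposited for 54675 probe sets and 11 arrays. Per the submitters' processing notes, MAS5 and GCOS were used, with versions, background correction and array build not given in the sources used here. Values show that each array was scaled to a mean near 100.01 after trimming 2% at each end, so a change in total RNA cannot be seen. Symbols came from the platform annotation, updated by Entrez number for 41037 probe sets (41091 with 1 symbol, 1801 with several, 11721 with none, 62 manufacturer controls left out).

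Signals were taken as log2(signal + 16), which understates folds of dim genes. With limma 3.58.1 (R 4.3.3), 7 group means were estimated from the 11 arrays together (eBayes with trend, 4 residual and 7.35 prior degrees of freedom). Single control arrays were given the spread of the paired groups. Of 19775 genes, the dimmest 40% were left out. Tests of the 8 comparisons were two-sided. Benjamini-Hochberg adjustment covered all genes, or all probe sets, of a fit. Precision is limited by how few arrays each group has.

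The members and lists were chosen with earlier results of these data known. Named genes were the members, MYCN, the genes called in each list (at most 5 by smallest p, and the other 2 called in the turnover list were added after their values were seen), and the 3 genes most like each called member. Alternatives were the offset, quantile normalization, median scaling, the filter, the mean of a gene's probe sets, the variance trend, the array letter as a block and leaving out each array. Leaving out both shMYCN arrays of 48 hours, and the fit with several-symbol probe sets, were added after seeing the data.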

Additional observations from a re-analysis of the deposited data

How the results depend on the processing

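Of the 8 members, the number called kept its value at 24 hours and for control virus against no virus (0 of 8 in each) under every alternative run. Leaving out a control virus array takes its hour out of the average, which then covers the other hours. With arrays left out in turn, 1 to 3 members were called at 48 hours, 1 to 2 at 72 hours, 1 to 3 in the average over hours, 0 to 1 for the change of the difference from 24 to 72 hours, and 1 to 3 against no virus. That change gave 1 member, MXI1, under quantile normalization and 1 without both shMYCN arrays of 48 hours. Against no virus, averaging all probe sets of a gene left 1 member. MXI1 kept its direction and its calls at 48 and 72 hours and over the 3 hours in the gene fit (average over the hours kept, 0.32 to 0.57). The MLX call at 72 hours was lost without either shMYCN array of that hour, and the average of 24 and 48 hours alone was not called. For probe set 210778_s_at of MXD4 and MIR4800 the average was -0.0036 over 24 and 48 hours and 0.56 over 48 and 72 hours, the lowest and highest values with 1 array left out.

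Over all probe sets with 1 symbol, A minus B of the shMYCN arrays correlated at r = -0.013, 0.025 and 0.055 between hours. Many of these sets are dim, so this cannot decide whether the letters pair the arrays. A replicate block on the letter left 2 members called over the 3 hours, 1 at 48 hours and 2 at 72 hours, and called 4763 genes in all, against 4500 without it. For the average of 24 and 48 hours alone, without the control virus array of 72 hours, 1938 genes were called. At 24 hours, 84 genes were called, with 35 to 404 under other settings and 3 to 413 with 1 array left out. For the change of the difference the count was 1227 (651 to 2471, and 557 to 2478), and for control virus against no virus it was 4 (0 to 37, and 0 to 36). With 1 array left out, counts reached 3587 in place of 2015 at 48 hours, 2648 in place of 4321 for 72 against 24 hours in shMYCN, and 1752 in place of 3651 against no virus. The causes of the other changes were not tested. Single control arrays and dim signals, as for MYC and MYCL, limit what can be told.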
